A study of Mus musculus with 2 samples.

Results

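Blood vessel endothelial cells were taken from 2 single-cell RNA libraries of healed mouse wounds and selected on raw counts of unique molecular identifiers (UMIs), each UMI standing for 1 captured RNA molecule. A cell was kept from 500 UMIs and 300 genes upward if no more than 15% of its UMIs were mitochondrial, and it was chosen by having at least 4 UMIs in all of Pecam1, Cdh5, Emcn and Flt1, with fewer than 2 UMIs of the lymphatic genes Prox1 and Mmrn1, fewer than 5 of the pericyte gene Rgs5, 0 of the leukocyte gene Ptprc and fewer than 20 of the collagen genes Col1a1 and Col1a2. Of 24649 filtered cells, 898 met the gate, 540 of 11443 in WT_LW and 358 of 13206 in TLR9agonist_LW. Both groups were wild type male C57BL/6J mice of 6 to 8 weeks with a full-thickness dorsal wound 1.8 cm across. Per the labels the wound of WT_LW received PBS, while a legend of the study calls its control a control oligodeoxynucleotide, and this could not be settled here. In TLR9agonist_LW it received 4 μg of ODN2395, a CpG oligodeoxynucleotide that activates the DNA sensor TLR9, both on days 0, 3 and 6. Tissue was taken 2 days after the scab detached, epidermis and dermis were separated and dissociated with enzymes, and dead cells were removed. Cells of several mice were pooled into the 1 library of a group, so the treatment cannot be told apart from the pooled mice, the preparation or the library, no test between groups was possible, and every interval below is a 95% interval that covers counting error only.

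Endothelial cells line the blood vessels and differ along the vessel. Arterial cells depend on Notch signalling, while the cells of postcapillary venules are where leukocytes leave the blood. Selectins let leukocytes roll on the venular wall, chemokines displayed there activate them, and ICAM-1 and VCAM-1 hold them. Inflammatory signals switch these genes on through the transcription factor NF-kB, which also switches on its own inhibitors. Angiopoietin receptors, tight junctions and a basement membrane keep the resting vessel wall sealed.

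The genes that led the gate over all other filtered cells were endothelial. Pecam1, Cdh5, Emcn and Flt1 had been used to choose the cells, so their levels are a description: Pecam1 was at 1565 and 1112 CPM in WT_LW and TLR9agonist_LW, Cdh5 at 1180.2 and 1097 CPM, Emcn at 599.6 and 569 CPM and Flt1 at 595 and 725 CPM, where CPM is a gene's UMIs summed over the gated cells of a library and scaled to a common total. Among genes the gate did not use, the vascular phosphatase gene Ptprb stood 5.34 and 5.77 log2 units above the other filtered cells, the selectin gene Sele 5.33 and 5.72, and Vwf, the gene of von Willebrand factor, 5.14 and 5.46. The gate is set in whole UMIs, and 1149 and 921 cells had reached the sum of 4 before the other limits left out 609 and 563 of them. Just outside the sum, at 3 UMIs, lay 28 and 32 cells with a median of 1865 and 5018 UMIs, and just inside it, at 4, lay 9 and 11 cells with a median of 1530 and 2301. The median gated cell had a sum of 25 in WT_LW and 27 in TLR9agonist_LW.

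Markers of other cell types were also found in the gate. The 6 keratinocyte markers summed to 1183 CPM in WT_LW and 2025 CPM in TLR9agonist_LW, with 2 of 6 higher by the fold defined below, the 4 neutrophil markers to 64.7 and 1397 CPM, with the 2 that could be tested higher, and the 6 fibroblast markers to 1244 and 1842 CPM, with 0 of 5 past the fold. Macrophage markers summed to 223 and 126 CPM, pericyte markers to 123 and 87.3, and lymphatic markers to 16.2 and 15.3. T cell, Schwann, mast, platelet and erythrocyte markers each summed to at most 142 CPM in either library. The neutrophil genes Retnlg and Cxcr2 were at 0 in the gated cells of TLR9agonist_LW, the lymphatic gene Mmrn1 was at 0 there too, and Mmrn1 and Prox1 had been limited by the gate. The part of this RNA in the results below was not tested. Depth differed between the libraries: the gated cells held 4126332 UMIs in WT_LW and 3392052 in TLR9agonist_LW, with a median of 6275 and 8244 UMIs per cell and of 4.88% and 2.81% mitochondrial UMIs. Of all deposited barcodes 47 occurred in both libraries, and 0 of these were in the gate in both.

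The gated cells made up 4.72% (4.34 to 5.12) of the filtered cells of WT_LW and 2.71% (2.44 to 3.00) of those of TLR9agonist_LW, for a log2 ratio of -0.80 (-0.997 to -0.604). The share depends on the other cells counted, and gated fibroblasts numbered 1387 and 3010. Thinning every cell to 2000 UMIs before the gate gave 5.55% and 3.12%, for a log2 ratio of -0.83, so equal depth left the difference in place.

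Expression was compared over the 9189 genes with at least 50 UMIs in the gate, and a gene was counted as past the fold at a log2 ratio of TLR9agonist_LW over WT_LW of at least 1 or at most -1. At the first, 4.07% of the genes were higher in TLR9agonist_LW, and at the second, 17.8% were lower. The median gene stood at -0.47. Relative to that median gene, 8.27% were higher and 4.68% lower, and the share of higher genes among those past the fold moved from 18.6% to 63.9%. List medians are given on both scales. UMIs come from the 3' ends of transcripts and were not scaled by length, so levels are compared between libraries for 1 gene and not between genes.

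Leukocyte adhesion receptors of the inflamed venule were higher in TLR9agonist_LW. E-selectin, encoded by Sele, was at 250.3 CPM (235 to 266) in WT_LW against 686 CPM (659 to 715) in TLR9agonist_LW, and P-selectin, encoded by Selp, at 609.7 CPM (586 to 634) in WT_LW against 1909 CPM (1862 to 1956) in TLR9agonist_LW. The log2 ratios were 1.45 (1.35 to 1.56) for Sele and 1.65 (1.58 to 1.71) for Selp. In cells with at most 1% heat shock UMIs Sele stood at 0.60, short of the fold, and Selp at 1.90. Both genes are named as markers of the cells, and neither was used by the gate. The integrin ligand gene Icam1 was at 247 CPM (232 to 263) in WT_LW against 1178 CPM (1142 to 1215) in TLR9agonist_LW, for a log2 ratio of 2.25 (2.15 to 2.35) or 4.77-fold. Vcam1, whose protein binds lymphocyte and monocyte integrins, was at 164 CPM (151 to 176) in WT_LW against 877 CPM (846 to 909) in TLR9agonist_LW, for a log2 ratio of 2.42 (2.30 to 2.55). These 4 were the only genes among the 18 tested of the leukocyte adhesion list past the fold upward, against 4.07% of all genes. Cd99l2, with 46.5 and 17.4 CPM, was the only one past it downward, against 17.8% of all genes. The list median was -0.26, or 0.21 relative to the median gene. Icam2, which resting endothelium carries, stood at 170.4 and 137 CPM with a log2 ratio of -0.31 (-0.48 to -0.14). The junctional receptors F11r at 344 and 238 CPM and Jam2 at 166 and 146 CPM were also short of the fold. Ackr1, the venular receptor that binds and carries chemokines across the wall, was at 184 CPM (171 to 198) in WT_LW against 385 CPM (364 to 406) in TLR9agonist_LW, for a log2 ratio of 1.06 (0.93 to 1.19).

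**Figure D1:**
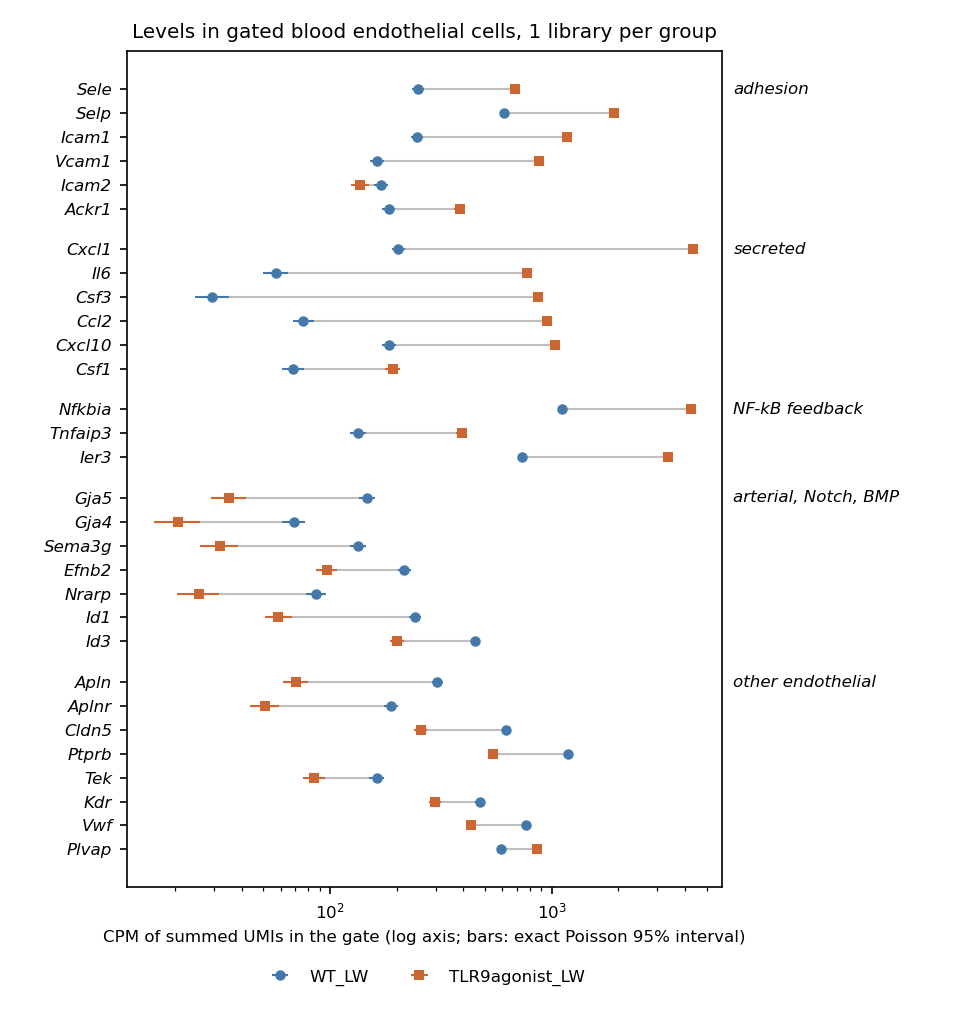
Levels of 30 genes in the gated blood endothelial cells, in CPM of summed UMIs on a log axis, with 1 point per library and exact Poisson 95% intervals. Adhesion, secreted and NF-kB feedback genes lay to the right in TLR9agonist_LW except Icam2 (Cxcl1 at 204 and 4338 CPM), and arterial, Notch and BMP genes lay to the left (Gja5 at 147 and 35.1 CPM).

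At equal depth more of the cells carried these receptors. After each cell was thinned to 2000 UMIs, which kept 497 of 540 and 344 of 358 gated cells, Icam1 was found in 26.8% (22.9 to 30.9) of the cells of WT_LW and 62.5% (57.1 to 67.6) of those of TLR9agonist_LW, against 45.6% and 78.8% without thinning. T cells, used for comparison, held Icam1 in 13.5% and 22.9% of cells at the same depth, Vcam1 in 1.97% and 3.56% and Sele in 0.234% and 0.401%. These shares came from 2134 and 1997 thinned cells, and the unthinned medians of T cells were 4274 and 4588 UMIs. Whether T cells make the Icam1 RNA themselves was not tested, so their share is not a clean background for Icam1. Vcam1 was found in 19.1% (15.7 to 22.9) and 55.2% (49.8 to 60.6) of the gated cells and Sele in 20.3% (16.9 to 24.1) and 42.7% (37.4 to 48.1). The shares of gated cells lay above those of T cells for all 3 genes in both libraries. At least 1 UMI of Icam1, Vcam1, Sele or Selp was seen in 53.1% and 83.1% of gated cells, and all 4 together in 4.43% and 24.4%.

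Secreted mediators of leukocyte recruitment showed wider differences than the receptors. Of the 17 tested genes of the chemokine and cytokine list, 14 were past the fold upward against 4.07% of all genes, 0 were past it downward, and the median log2 ratio was 2.12, or 2.59 relative to the median gene. The same list was past the fold upward for 10 of 14 genes in pericytes, 10 of 19 in fibroblasts, 9 of 17 in T cells and 9 of 20 in all other filtered cells. Downward it had 0, 2, 1 and 0 genes in these classes. In lymphatic endothelial cells 3 of 8 were past the fold upward and 2 downward, with a median of 0.04. The shares of all genes past the fold in these classes are not given here. Of the 14 genes past the fold upward in the gate, 8 were in a larger share of gated cells than of T cells in TLR9agonist_LW. This held beyond the counting interval at equal depth. The comparison uses the library in which these genes are higher, so the count of 8 is a description only. Cxcl1, a neutrophil-attracting chemokine, was at 204 CPM (190.0 to 218) in WT_LW against 4338 CPM (4268 to 4409) in TLR9agonist_LW, or 21.3-fold. Il6, the gene of the cytokine interleukin-6, was at 57.0 CPM (49.9 to 64.7) in WT_LW against 771 CPM (742 to 801) in TLR9agonist_LW, or 13.5-fold. Csf3, which encodes the granulocyte growth factor G-CSF, was at 29.6 CPM (24.6 to 35.3) in WT_LW against 864 CPM (833 to 896) in TLR9agonist_LW, or 29.2-fold. These 3 genes had log2 ratios of 4.41, 3.76 and 4.87, among the 10 highest of the genes with at least 200 UMIs. Csf1, the macrophage growth factor gene, was at 68.3 CPM (60.6 to 76.8) in WT_LW against 192 CPM (178 to 208) in TLR9agonist_LW, for a log2 ratio of 1.49 (1.29 to 1.70). Cxcl12, a chemokine of resting and arterial endothelium, ran the other way at 355 and 195 CPM, for a log2 ratio of -0.87 (-1.001 to -0.73) that is short of the fold, and of -0.30 in cells with at most 1% heat shock UMIs, and Cx3cl1, which tethers monocytes, stood at 17.9 and 20.6 CPM.

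At equal depth some mediators were seen in a larger share of gated cells than of T cells, and others were not. The T cells had been chosen without UMIs of Pecam1, Cdh5, Emcn or Flt1, so they are not an unselected background. The comparison is a description. Csf3 was seen in 3.02% (1.70 to 4.93) and 36.0% (31.0 to 41.4) of the thinned gated cells and in 0.328% and 1.55% of T cells. Il6 was seen in 7.85% (5.64 to 10.6) and 50.6% (45.2 to 56.0), against 1.27% and 5.66%, and Cxcl1 in 24.9% (21.2 to 29.0) and 79.1% (74.4 to 83.2), against 12.7% and 34.0%. Without thinning the gated shares were 5.74% and 45.5% for Csf3, 15.9% and 70.4% for Il6 and 46.5% and 92.2% for Cxcl1. Ccl2, the monocyte chemokine gene, had a summed level of 76.1 and 957 CPM but was seen in 35.5% (30.4 to 40.8) of gated cells of TLR9agonist_LW and 34.9% of T cells, so its share of cells cannot be read above background, and 5 cells held 47.4% of its UMIs there. In TLR9agonist_LW Cxcl2 was at 44.8% against 53.3% of T cells, Ccl7 at 12.8% against 14.5% and Ccl8 at 9.01% against 12.6%. Ccl20 at 1.74% against 3.00% and Il33 at 5.23% against 8.36% were likewise below the T cell share there. The shares of these genes cannot be read above background either, and the source of their RNA was not tested. The interferon-induced chemokine Cxcl10 was at 185 and 1039.8 CPM, in 15.1% and 36.0% of gated cells and 12.4% and 14.5% of T cells, so that its share stood clear of T cells in TLR9agonist_LW. Cxcl9, a related chemokine, was at 49.2 and 210.2 CPM, with 50.7% and 39.7% of its UMIs in 5 cells.

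**Figure D2:**
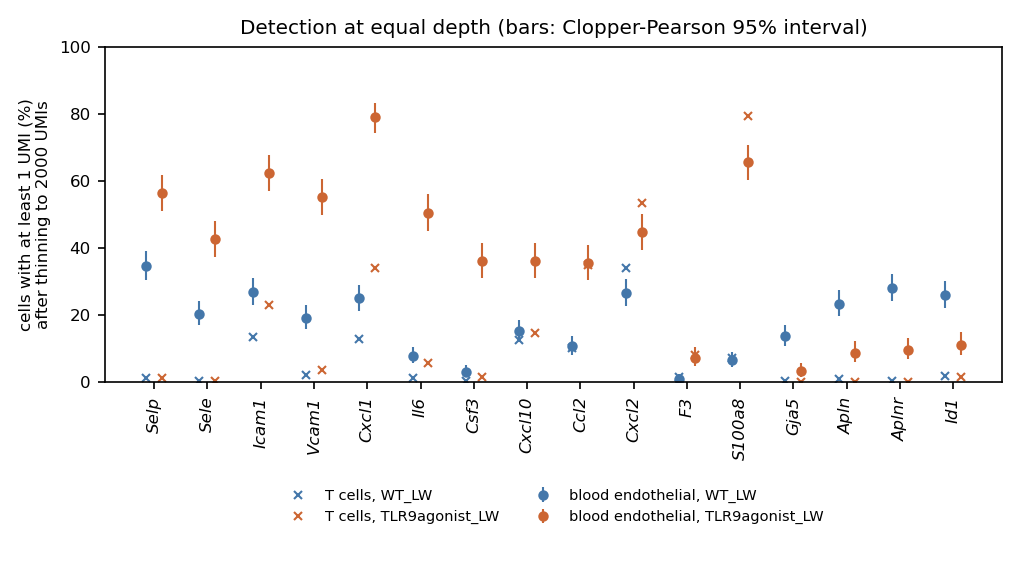
Percent of cells with at least 1 UMI of each of 16 genes after thinning to 2000 UMIs, as filled points for the gated blood endothelial cells with Clopper-Pearson 95% intervals and as crosses for T cells. Selp, Sele, Vcam1, Il6 and Csf3 stood far above T cells in TLR9agonist_LW (Csf3 at 36.0% against 1.55%), whereas Cxcl2, F3 and S100a8 lay below them (S100a8 at 65.7% against 79.3%).

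Among the other gated classes, pericytes had more of several mediators than the blood endothelial cells. In the 243 and 152 pericytes Cxcl1 was at 1426 and 12744 CPM, Il6 at 342 and 2436, and Ccl2 at 954 and 7996. Csf3 had the opposite order, with 2.12 and 316 CPM in pericytes and 10.9 and 11.4 in the 55 and 48 lymphatic endothelial cells. Icam1 in lymphatic endothelial cells was at 89.8 and 409 CPM, below the blood endothelial cells of the same library. Vcam1 in fibroblasts was at 87.5 and 296 CPM. The differences between classes were not tested, since each class has 1 library per group.

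**Figure D3:**
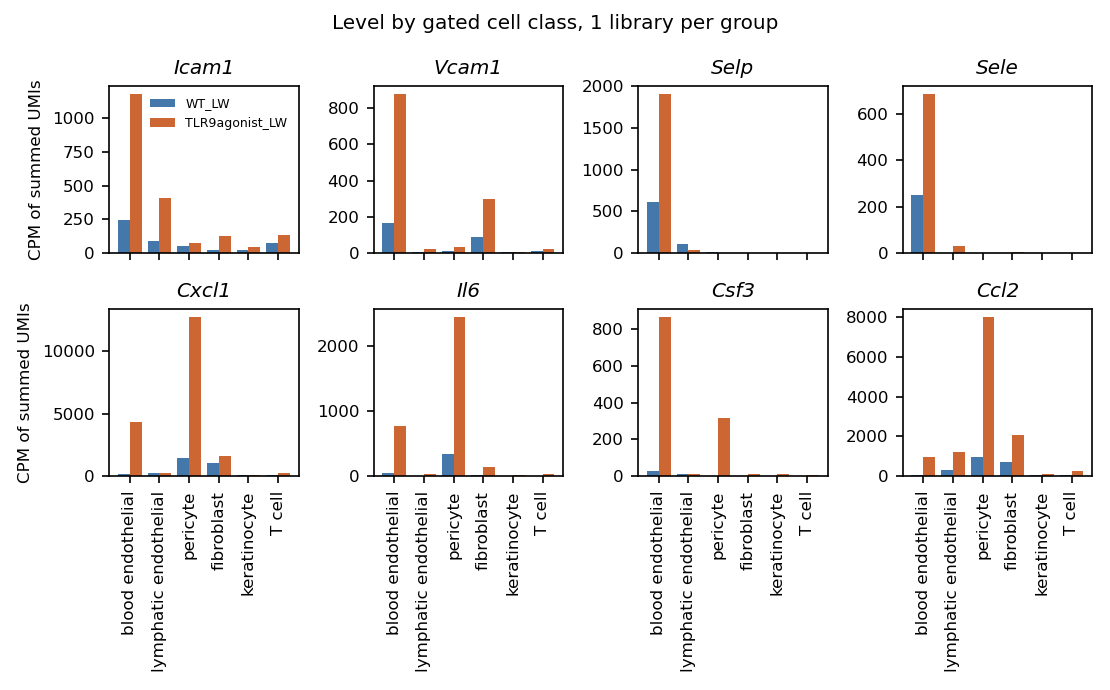
CPM of summed UMIs of 8 genes in 6 gated cell classes, with 1 bar per library and no error bar because each class has 1 library per group. In TLR9agonist_LW Icam1, Vcam1, Selp, Sele and Csf3 were highest in blood endothelial cells among the classes drawn (Icam1 at 1178 CPM), and Cxcl1, Il6 and Ccl2 in pericytes (Cxcl1 at 12744 CPM).

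Genes that NF-kB induces to limit itself were higher together with the mediators. Nfkbia, which encodes the inhibitor that holds NF-kB in the cytoplasm, was at 1119 CPM (1087 to 1152) in WT_LW against 4251 CPM (4181 to 4320.5) in TLR9agonist_LW, for a log2 ratio of 1.92 (1.88 to 1.97). Tnfaip3, which encodes the deubiquitinase A20, was at 134 CPM (123 to 146) in WT_LW against 393 CPM (372 to 414) in TLR9agonist_LW, and its partner Tnip1 at 63.7 and 244 CPM. Ier3, an early survival gene, was at 735 CPM (709 to 761) in WT_LW against 3342 CPM (3281 to 3404) in TLR9agonist_LW. In the whole list 9 of 17 tested genes were past the fold upward, against 4.07% of all genes, and 0 downward, with a median of 1.03, or 1.505 relative to the median gene. The subunit genes Nfkb1 at 176 and 249 CPM and Nfkb2 at 37.6 and 46.6 CPM were short of the fold, as was Irf1 at 189 and 298 CPM, and Rel stood at 57.7 and 118 CPM with a log2 ratio of 1.03.

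The stretch upstream of the start was read for 5 of these genes, because they differed together and are textbook NF-kB targets. It is the 250 bases before the annotated start in RefSeq for GRCm38.p6, in the direction of the gene, and capitals mark each match, on either strand, to the kappaB motif, searched as GGG, any 2 bases, TTT and CC.
Cxcl1 (chr5:90890995-90891244, plus strand): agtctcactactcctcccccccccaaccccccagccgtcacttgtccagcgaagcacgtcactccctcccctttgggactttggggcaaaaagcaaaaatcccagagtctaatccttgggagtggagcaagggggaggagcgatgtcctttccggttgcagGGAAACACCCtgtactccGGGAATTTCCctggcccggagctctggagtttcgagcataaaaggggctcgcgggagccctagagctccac
Il6 (chr5:30012864-30013113, plus strand): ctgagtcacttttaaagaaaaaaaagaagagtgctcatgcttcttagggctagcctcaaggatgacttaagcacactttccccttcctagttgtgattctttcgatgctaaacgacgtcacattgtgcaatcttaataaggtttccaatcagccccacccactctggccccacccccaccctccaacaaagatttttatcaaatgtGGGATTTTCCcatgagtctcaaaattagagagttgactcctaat
Nfkbia (chr12:55492648-55492897, minus strand): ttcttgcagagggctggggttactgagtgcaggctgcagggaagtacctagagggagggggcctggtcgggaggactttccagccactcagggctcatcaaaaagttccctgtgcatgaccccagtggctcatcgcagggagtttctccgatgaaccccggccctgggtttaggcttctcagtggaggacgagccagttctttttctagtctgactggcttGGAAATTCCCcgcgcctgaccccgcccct
Icam1 (chr9:21015690-21015939, plus strand): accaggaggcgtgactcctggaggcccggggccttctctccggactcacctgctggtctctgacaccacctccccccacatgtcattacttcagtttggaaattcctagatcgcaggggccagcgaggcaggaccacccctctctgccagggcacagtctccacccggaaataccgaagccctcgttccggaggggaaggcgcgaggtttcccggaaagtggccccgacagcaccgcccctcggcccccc
Sele (chr1:164047984-164048233, plus strand): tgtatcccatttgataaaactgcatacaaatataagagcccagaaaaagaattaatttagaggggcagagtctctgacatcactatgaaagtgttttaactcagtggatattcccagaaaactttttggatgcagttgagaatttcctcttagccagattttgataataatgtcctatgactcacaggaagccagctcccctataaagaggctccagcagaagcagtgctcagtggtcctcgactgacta
Cxcl1 held 2 matches, Il6 and Nfkbia 1 each, and Icam1 and Sele 0, which says only that these letters are not in this window. Of the 27 genes of the adhesion, chemokine and NF-kB lists past the fold upward, 22 had an upstream sequence in the table, and 8 of them, or 36.4%, held a match, against 1.65% of all 27025 genes with one. A motif of the Notch pathway factor RBPJ, searched as TGGGAA, was in 9 of these 22, or 40.9%, against 24.1% of all genes. Of the 9 arterial and Notch list genes past the fold downward, 1, or 11.1%, held a kappaB match and 2, or 22.2%, an RBPJ match. The lists had been drawn up from known inflammatory genes, and a match is a description of letters, not a binding site.

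Arterial genes were lower in TLR9agonist_LW. Of 14 tested genes of the arterial list, 6 were past the fold downward against 17.8% of all genes, 0 upward, and the median was -0.87, or -0.40 relative to the median gene. Gja5, the gene of the arterial gap junction protein connexin 40, was at 147 CPM (136 to 159.5) in WT_LW against 35.1 CPM (29.1 to 42.0) in TLR9agonist_LW, 4.20-fold lower. Gja4, the gene of connexin 37, was at 68.8 CPM (61.1 to 77.3) in WT_LW against 20.6 CPM (16.1 to 26.1) in TLR9agonist_LW. The semaphorin gene Sema3g was at 134 CPM (123 to 145) in WT_LW against 31.8 CPM (26.1 to 38.4) in TLR9agonist_LW. The log2 ratios of these 3 were -2.07 (-2.37 to -1.78), -1.74 (-2.14 to -1.36) and -2.07 (-2.38 to -1.77). Efnb2, the arterial ephrin, was at 217 and 96.7 CPM, Unc5b, a netrin receptor, at 88.7 and 28.6 CPM, and Bmx, an arterial kinase, at 27.9 and 7.66 CPM. Clu, at 115 and 191 CPM, and Hey1, a Notch target at 42.2 and 33.6 CPM with a log2 ratio of -0.33 (-0.68 to 0.02), did not follow the other arterial genes.

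Notch and BMP readouts differed by member. Nrarp, a Notch target that feeds back on the pathway, was at 86.8 CPM (78.0 to 96.2) in WT_LW against 25.6 CPM (20.5 to 31.6) in TLR9agonist_LW, and the receptor gene Notch4 at 88.2 CPM (79.4 to 97.8) in WT_LW against 41.6 CPM (35.0 to 49.0) in TLR9agonist_LW. Hes1, another Notch target, stood at 136 and 144 CPM, and the ligand gene Dll4 at 128 and 98.5 CPM with a log2 ratio of -0.38. In cells with at most 1% heat shock UMIs Dll4 was past the fold at -1.07 and Hes1 stood at -0.18 against 0.08. In the Notch list 3 of 11 tested genes were past the fold downward, against 17.8% of all genes, or 1 of 11 relative to the median gene against 4.68%, and 0 upward, with a median of -0.60, or -0.13 relative to the median gene. Id1 and Id3, targets of BMP signalling, were at 242 CPM (227 to 257) in WT_LW against 58.7 CPM (50.8 to 67.4) in TLR9agonist_LW and at 453 CPM (433 to 474) in WT_LW against 201 CPM (187 to 217) in TLR9agonist_LW. Their log2 ratios were -2.04 (-2.27 to -1.82) and -1.17 (-1.30 to -1.04). Smad7, the inhibitory SMAD, was higher at 101 and 244 CPM, while Smad6 stood at 10.7 and 10.0 CPM, and the receptor genes Acvrl1 at 109 and 75.8 CPM and Eng at 501 and 441 CPM were short of the fold. Tmem100, a further BMP target, had 27 UMIs in WT_LW and 0 in TLR9agonist_LW. The median of the BMP and TGF-beta list was -0.25, and 0.22 relative to the median gene, so its sign depends on the scale.

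Apelin and its receptor were both lower. Apln, a peptide gene of sprouting tip cells, was at 306 CPM (289 to 323) in WT_LW against 70.2 CPM (61.5 to 79.7) in TLR9agonist_LW, for a log2 ratio of -2.12 (-2.33 to -1.92) or 4.36-fold lower. Aplnr, the receptor gene, was at 189 CPM (176 to 202) in WT_LW against 51.0 CPM (43.7 to 59.2) in TLR9agonist_LW, for a log2 ratio of -1.89 (-2.13 to -1.65). Other tip cell genes went both ways. Lama4, a laminin gene, was lower but short of the fold at 282 and 145 CPM, as were Plod2 at 15.025 and 9.14 CPM, Lxn at 96.5 and 61.9 CPM and Igfbp3 at 1355 and 942 CPM. Angpt2, a destabilising angiopoietin, was higher at 66.2 CPM (58.5 to 74.5) in WT_LW against 132 CPM (120.4 to 145) in TLR9agonist_LW, Esm1 at 87.5 and 161 CPM, Pgf, a VEGF family ligand, at 87.7 and 203 CPM, and Adm, the adrenomedullin gene, at 26.2 and 86.7 CPM. The tip list had 4 of 17 tested genes past the fold upward, against 4.07% of all genes, and Apln as the 1 past it downward, against 17.8%. Among VEGF and angiopoietin receptor genes, Flt4 was past the fold downward at 19.6 CPM (15.6 to 24.4) in WT_LW against 9.43 CPM (6.45 to 13.3) in TLR9agonist_LW, and others were lower but short of it, with Kdr at 475 CPM (454 to 496) in WT_LW against 297 CPM (279 to 316) in TLR9agonist_LW, Tek at 163 CPM (151 to 176) in WT_LW against 85.2 CPM (75.7 to 95.6) in TLR9agonist_LW and the co-receptor Nrp1 at 513 and 266 CPM, and Flt1, a gene of the gate, was at 595 and 725 CPM. Relative to the median gene Kdr stood at -0.20, Tek at -0.46 and Nrp1 at -0.48.

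Junction genes also differed by member. Cldn5, which encodes the main endothelial claudin, was at 625 CPM (601 to 649) in WT_LW against 257 CPM (240.3 to 275) in TLR9agonist_LW, for a log2 ratio of -1.28 (-1.39 to -1.17). Cgnl1, a junction adaptor, was at 59.1 and 18.3 CPM, and the caveolar gene Cavin2 at 450.3 and 219 CPM. Gja1, the gene of connexin 43, was higher at 277 CPM (261 to 293) in WT_LW against 720.2 CPM (692 to 749) in TLR9agonist_LW, in contrast with the arterial connexins. Plvap, which forms the diaphragms of permeable vessels, stood at 589 CPM (565 to 613) in WT_LW against 855 CPM (824 to 887) in TLR9agonist_LW, for a log2 ratio of 0.54 (0.46 to 0.62). Ptprb, the phosphatase that restrains TIE2, was at 1189.7 CPM (1157 to 1223) in WT_LW against 545 CPM (521 to 571) in TLR9agonist_LW, and Clec14a at 219 and 82.5 CPM. Across the 30 pan-endothelial genes, 3 were past the fold downward, against 17.8% of all genes, and 0 upward, against 4.07%. Their median was -0.60, or -0.13 relative to the median gene, close to the rest of the transcriptome. Vwf stood at 765 CPM (739 to 792) in WT_LW against 432 CPM (411 to 455) in TLR9agonist_LW.

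**Figure D4:**
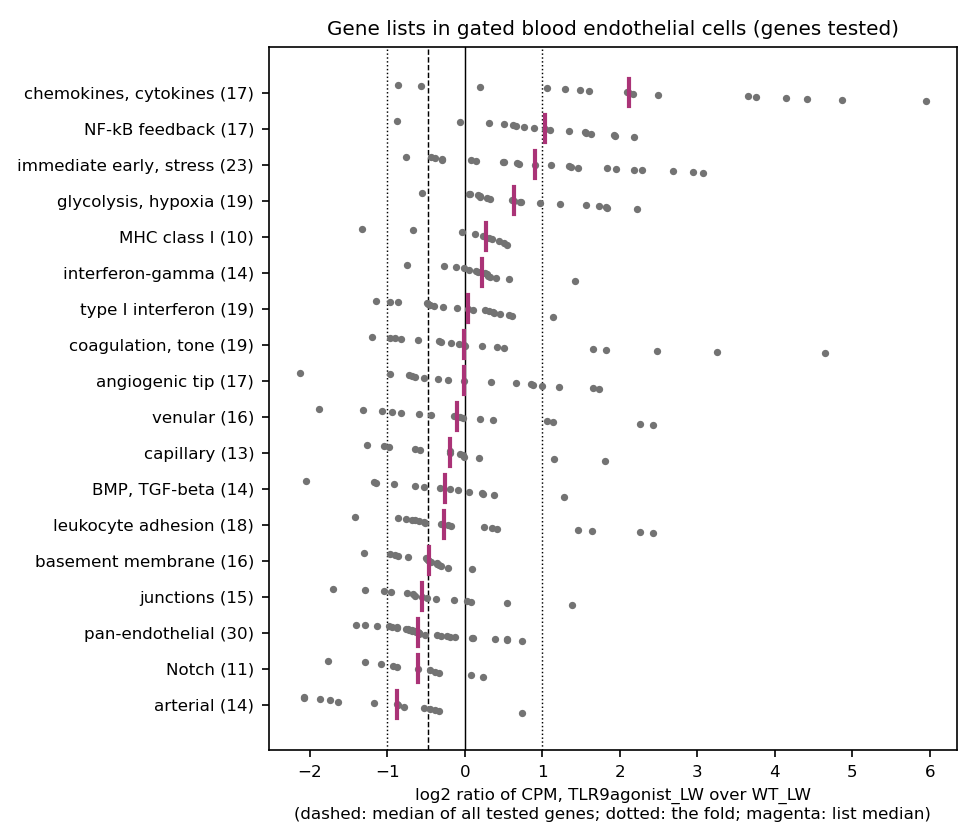
Log2 ratio of CPM, TLR9agonist_LW over WT_LW, in the gated blood endothelial cells for the tested genes of 18 lists, with 1 grey point per gene and a magenta bar at the list median; the dashed line is the median of all 9189 tested genes at -0.47. The chemokine and NF-kB lists lay to the right, with medians of 2.12 and 1.03, as did the immediate early and stress list at 0.90. The arterial list lay to the left at -0.87.

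The gate held cells of more than 1 vessel type. Cells with at least 2 UMIs in all of Gja4, Gja5, Sema3g, Hey1 and Bmx are called arterial-gene cells here, and cells with at least 2 UMIs of Ackr1 and Selp venular-gene cells. These are ranges of a count and not cell types, and their defining genes themselves differed between the libraries. Of 16 tested genes of the venular list, 4, Ackr1 among them, were past the fold upward, against 4.07% of all genes. Aplnr, Ephb4 and Flrt2 were the 3 past it downward, against 17.8%. The list median was -0.10, or 0.37 relative to the median gene, so the venular list did not move as a whole with Ackr1 and Selp. Arterial-gene cells numbered 142 of 540, or 26.3% (22.6 to 30.2), in WT_LW and 48 of 358, or 13.4% (10.1 to 17.4), in TLR9agonist_LW. Venular-gene cells numbered 199, or 36.9% (32.8 to 41.1), and 210, or 58.7% (53.4 to 63.8). After thinning to 2000 UMIs the arterial-gene share was 17.5% and 5.23% and the venular-gene share 28.6% and 49.4%, so the order held at equal depth. Only 5 and 6 cells met both limits, and 194 and 94 met neither. Near the limits, 67 and 36 cells had an arterial sum of exactly 1 and 23 and 17 of exactly 2, and 43 and 21 had a venular sum of 1 and 22 and 14 of 2.

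Icam1 and Vcam1 were higher in TLR9agonist_LW in every range. In arterial-gene cells Icam1 was at 50.7 CPM in WT_LW against 474 CPM in TLR9agonist_LW, for a log2 ratio of 3.22 (2.85 to 3.62). In venular-gene cells it was at 495 CPM in WT_LW against 1543 CPM in TLR9agonist_LW, for a log2 ratio of 1.64 (1.52 to 1.76). Vcam1 was at 119.7 and 326 CPM in arterial-gene cells and 276 and 1154 CPM in venular-gene cells. Sele, which is outside the definition as well, was at 631 and 1133 CPM in venular-gene cells, for a log2 ratio of 0.84 (0.73 to 0.96) that is short of the fold, and at 192 and 112 CPM in the few cells that met both limits, and it had 2 and 4 UMIs in arterial-gene cells. The arterial-gene cells of TLR9agonist_LW had about as much Icam1 as the venular-gene cells of WT_LW. The level of Csf3 was highest in the venular-gene cells, with 71.9 CPM in WT_LW against 1393 CPM in TLR9agonist_LW, against 1.41 and 88.7 CPM in arterial-gene cells and 9.88 and 152 CPM in cells that met neither limit. Cxcl10 was at 349.8 and 1506 CPM in venular-gene cells and 66.9 and 167 CPM in arterial-gene cells. Il6 was spread more evenly, with 33.8 and 482 CPM in arterial-gene, 35.9 and 515 CPM in neither and 93.7 and 925 CPM in venular-gene cells.

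The lower Cldn5 of the gate went with the arterial-gene range. Cldn5 was at 1443 CPM in WT_LW against 755 CPM in TLR9agonist_LW in arterial-gene cells, for a log2 ratio of -0.93 (-1.08 to -0.79). In venular-gene cells it was at 69.3 and 64.8 CPM, for a log2 ratio of -0.10 (-0.48 to 0.29), and in cells of neither range at 358 and 367 CPM, for a log2 ratio of 0.03 (-0.20 to 0.26). Efnb2 had the same pattern, at 481 and 264 CPM in arterial-gene cells and 29.0 and 27.3 CPM in venular-gene cells. Cxcl12 was level in arterial-gene cells at 740.1 and 715 CPM, for a log2 ratio of -0.05 (-0.22 to 0.11), and lower in venular-gene cells at 89.8 and 47.6 CPM. Jag1, a Notch ligand gene, was at 317 and 126 CPM in arterial-gene cells and 90.4 and 88.1 CPM in venular-gene cells. Apln did not follow this pattern and was lower where arterial genes were few, at 336 and 51.2 CPM in venular-gene cells, 519 and 131 CPM in neither and 111 and 65.3 CPM in arterial-gene cells. Id1 was lower in all 3 ranges, with log2 ratios of -1.39 (-1.79 to -1.01), -1.83 (-2.31 to -1.38) and -2.29 (-2.65 to -1.94) in arterial-gene, neither and venular-gene cells. Plvap was higher in arterial-gene cells, at 217 and 559 CPM with a log2 ratio of 1.37 (1.14 to 1.59), and nearer to level in venular-gene cells at 0.18 (0.08 to 0.27). Vwf was lower in these 3 ranges, at 938 and 424 CPM in venular-gene and 678 and 472 CPM in arterial-gene cells. These differences between ranges were not tested.

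**Figure D5:**
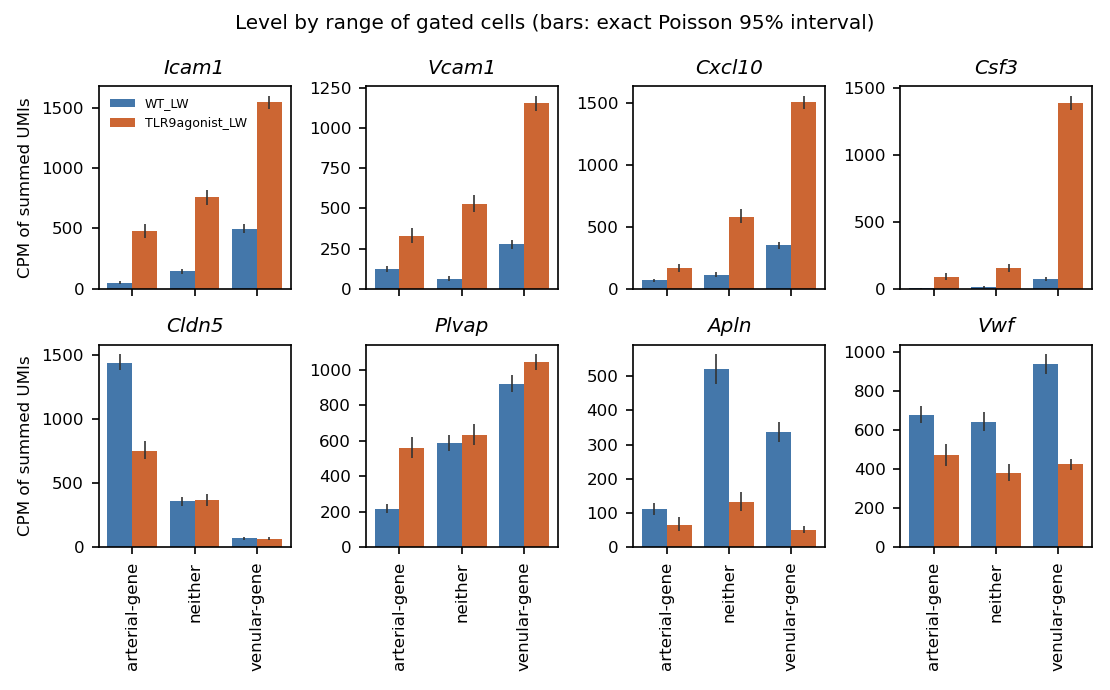
CPM of summed UMIs of 8 genes in the arterial-gene, neither and venular-gene ranges of the gated blood endothelial cells, with 1 bar per library and exact Poisson 95% intervals. Icam1, Vcam1, Cxcl10 and Csf3 were higher in TLR9agonist_LW in all 3 ranges, with the highest Csf3 level in venular-gene cells, whereas Cldn5 differed in arterial-gene cells (1443 and 755 CPM) and Apln most in venular-gene cells (336 and 51.2 CPM).

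Fibrinolysis and growth factor genes were among the others past the fold. Plau, the gene of urokinase, was at 15.8 CPM (12.2 to 20.1) in WT_LW against 87.6 CPM (77.9 to 98.1) in TLR9agonist_LW, for a log2 ratio of 2.47 (2.08 to 2.88), and Plaur, its receptor gene, at 38.048 and 135 CPM. In the thinned cells Plau was seen in 3.62% and 11.9%, against 0.74977% and 1.20% of T cells. F3, the gene of tissue factor, which starts coagulation, had a summed level of 2.91 and 73.1 CPM. In TLR9agonist_LW it was seen in 7.27% of gated cells and 8.11% of T cells, and 1 gated cell held 75 of its 248 UMIs. Its share of cells therefore cannot be read above background. Ptgs2, the gene of the inducible cyclooxygenase, was likewise at 9.30% against 12.5%. The anticoagulant genes Thbd at 109 and 103 CPM, Procr at 117 and 116 CPM and Tfpi at 42.2 and 42.2 CPM and the nitric oxide synthase gene Nos3 at 129.7 and 103 CPM were short of the fold. Of the 19 tested genes of the coagulation and tone list, 5 were past it upward, against 4.07% of all genes. Ptgs1, at 57.7 and 25.1 CPM, was the 1 past it downward, against 17.8%.

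Pdgfa, a ligand for PDGF receptors on mesenchymal cells, was at 42.7 CPM (36.6 to 49.4) in WT_LW against 239 CPM (223 to 256) in TLR9agonist_LW, for a log2 ratio of 2.49 (2.25 to 2.73), and was seen in 4.83% and 25.6% of thinned cells against 2.25% and 1.25% of T cells. Pdgfb, the ligand that recruits pericytes, did not move with it and stood at 221 and 219 CPM. Hbegf, an EGF family ligand, was at 131 and 295 CPM, and Inhbb, an activin subunit gene, at 21.3 and 78.1 CPM. Areg, another EGF family ligand, had a summed level of 24.2 and 236 CPM, but 5 cells held 84.0% and 82.6% of its UMIs, and it was seen in 9.88% of gated cells of TLR9agonist_LW and in 40.4% of T cells, which can make it. Fst, an activin antagonist, rested on 1 cell with 98 of 151 UMIs. The stem cell factor gene Kitl stood at 282 and 299.5 CPM.

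Glucose metabolism genes were higher in part. Pfkfb3, which drives glycolysis in sprouting endothelium, was at 51.9 CPM (45.1 to 59.3) in WT_LW against 242 CPM (226 to 259) in TLR9agonist_LW, for a log2 ratio of 2.22 (2.00 to 2.45). The glucose transporter gene Slc2a1 was at 31.0 CPM (25.9 to 36.9) in WT_LW against 111 CPM (99.9 to 123) in TLR9agonist_LW, and the hypoxia factor gene Hif1a at 404 CPM (385 to 424) in WT_LW against 946 CPM (913 to 979) in TLR9agonist_LW. Enzymes of the lower pathway were short of the fold, with Ldha at 299.8 and 337 CPM and Pkm at 445 and 544 CPM. Of 19 tested genes, 6 were past the fold upward, against 4.07% of all genes, and 0 downward, and the median was 0.63, or 1.11 relative to the median gene. Epas1, the HIF-2 gene that is typical of endothelium, stood at 567 and 388 CPM.

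Few interferon-stimulated and antigen presentation genes were past the fold, though their list medians lay above the median gene. Of the 19 tested type I interferon genes, only Irf7 at 60.1 and 132 CPM was past the fold upward, against 4.07% of all genes. Stat2 at 80.5 and 36.3 CPM was the only one past it downward, against 17.8%. The median was 0.04, or 0.51 relative to the median gene. Isg15 stood at 192 and 286 CPM and Ifit1 at 85.5 and 79.9 CPM. Among 14 tested interferon-gamma genes Cd274, which encodes PD-L1, was the 1 past the fold, at 18.9 and 50.7 CPM and upward, against 4.07% of all genes. Gbp2 stood at 119 and 157 CPM and Iigp1 at 495 and 514 CPM. The median of this list was 0.22, or 0.69 relative to the median gene. The MHC class I genes H2-K1 at 1949.9 and 2146 CPM and B2m at 2728 and 2651 CPM were short of the fold. The MHC class I median was 0.27, or 0.75 relative to the median gene. Tlr9, the receptor for the agonist, had 0 UMIs in the gated cells of both libraries, which allows up to 0.727 and 0.884 CPM. Tlr2 was at 14.5 and 27.4 CPM and Tlr4 at 19.4 and 12.1 CPM. Tnfrsf1b, the gene of TNF receptor 2, was at 41.2 and 98.8 CPM, and Il1r1, an interleukin-1 receptor gene, at 95.7 and 123 CPM.

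Basement membrane genes followed the median gene. Col4a1 was at 2867 and 2116 CPM, Col4a2 at 1736 and 1252 CPM and Sparc, a matrix-binding protein gene, at 4242 and 3093 CPM, and the list median was -0.46, or 0.01 relative to the median gene. Fn1, the fibronectin gene, was the 1 of 16 past the fold, at 358 CPM (339.9 to 377) in WT_LW against 145 CPM (133 to 158) in TLR9agonist_LW. It was past the fold downward, as were 17.8% of all genes. Of 19 tested proliferation genes, Hist1h1b, with 11 and 51 UMIs, was the 1 past the fold, upward, near the 4.07% of all genes. Mki67 stood at 41.2 and 38.3 CPM, Top2a at 33.9 and 33.6 CPM, Hmgb2 at 137 and 238 CPM, Tyms at 33.9 and 56.6 CPM and Cenpf at 41.7 and 23.9 CPM. At least 2 UMIs of Mki67 and Top2a were seen in 2.01% and 0.872% of thinned gated cells and in 5.48% and 2.95% of T cells.

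Among all genes with at least 200 UMIs in the gate, the 10 highest ratios belonged to Sprr2d, Csf3, F3, Il17a, S100a9, S100a8, Cxcl1, Serpinb2, Il6 and Ccl2. Sprr2d, a keratinocyte envelope gene, was at 2.67 and 131 CPM and in 20.9% of thinned gated cells against 33.1% of T cells. S100a8, a neutrophil and keratinocyte gene, was at 30.1 and 649 CPM and in 65.7% against 79.3%. Serpinb2 was in 14.2% against 15.5%. These 3 genes were no more frequent in the gated cells than in T cells, so their shares cannot be read above background. The source of their RNA was not tested. Il17a, a cytokine gene that T cells themselves make, was at 7.76 and 178 CPM, with 75.3% of its UMIs in TLR9agonist_LW in 5 cells. The 10 lowest were Gm26870, Elovl6, Nrep, Rnf168, Snn, Gdpd5, Apln, Sema3g, Gja5 and Pcmtd2. Gm26870, an RNA gene, went from 502 to 11 UMIs and was similarly lower in T cells, at 168 and 22.9 CPM. Elovl6, a fatty acid elongase gene, was at 49.4 and 7.37 CPM, with 141 of its 204 UMIs of WT_LW in 1 cell.

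Heat shock RNA differed between the libraries in the same cells. The median share of heat shock UMIs per gated cell was 0.127% in WT_LW and 1.29% in TLR9agonist_LW, with 0.301% and 1.88% in pericytes and 0.159% and 0.569% in T cells. Hspa1a was at 685 and 4396 CPM and Hspb1 at 706 and 5943 CPM, both genes of protein chaperones. Of the 23 tested genes of the immediate early and stress list, 11 were past the fold upward, against 4.07% of all genes. Downward it had 0, against 17.8%, and the median was 0.90, or 1.38 relative to the median gene. In the 519 and 148 cells with at most 1% heat shock UMIs, the log2 ratios were 4.80 for Cxcl1, 3.70 for Il6, 5.17 for Csf3, 2.27 for Icam1, 2.72 for Vcam1 and 1.90 for Selp, against 4.41, 3.76, 4.87, 2.25, 2.42 and 1.65 in all gated cells. Sele stood at 0.60 in those cells, Cxcl10 at 0.94, Cxcl9 at 0.98 and Atf3, a stress gene, at 0.09, which are short of the fold. Gja5 was at -2.27, Apln at -1.73, Id1 at -2.28 and Cldn5 at -1.22. The part of heat shock in the results of Sele, Cxcl9 and Cxcl10 was not tested further.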

How the data were processed

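Libraries were 10x Genomics 3' single-cell libraries, of chemistry v2 or v3 per the labels, which do not say which. Per the file headers the authors made the matrices with Cell Ranger 4.0.0, and the submitters' notes also name fastp, Seurat and mm9. As deposited by the authors, the values are raw UMI counts for each gene in 12800 and 13751 barcodes, which sum to 99374045 and 132339022 UMIs, without normalization. Their barcode and gene lists name the cells and genes. The mouse number per pool is given in 2 ways in the sources and is not printed.

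Here UMIs of 27998 genes were summed per symbol and, over the cells of each gate, per library, and scaled to CPM, each with its exact Poisson 95% interval. Log2 ratios carry the exact conditional binomial interval and shares the Clopper-Pearson interval, all for counting error only. PCR duplicates are collapsed by the UMIs. Comparison gates used Rgs5 of at least 5 (pericyte), Prox1 and Mmrn1 of at least 2 (lymphatic endothelial), Col1a1 and Col1a2 of at least 20 (fibroblast), Krt5 and Krt14 of at least 20 (keratinocyte) and at least 2 Cd3 UMIs with Ptprc (T cell). T cells and keratinocytes were also required to have no UMIs of Pecam1, Cdh5, Emcn or Flt1. T cells that held RNA of these endothelial genes were thus left out of the comparison. Detection shares used cells thinned to 2000 UMIs with seed 0. No doublet caller was run: doublets were limited only by the marker limits of the gate, and settings without cells over 20000 UMIs or with markers of other lineages are given at the end. The calculation of ratios and intervals was checked on simulated counts with known folds, which tests no difference between the libraries.

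The members and the gene lists were chosen with earlier results of these data known. Named genes are list genes, with levels from 50 UMIs in the gate upward and mostly as UMI counts below that, the 10 highest and 10 lowest ratios among genes with at least 200 UMIs in all and 10 per library, and, among the 15 genes that lead the gate over other cells, a few. Of 527 listed genes, 521 were in the files, 5 of them under an older symbol. Promoter letters come from RefSeq (GRCm38.p6). Scripts ran on scipy 1.17.1, pandas 2.3.3, numpy 2.4.6, matplotlib 3.10.9 and Python 3.11.15. Alternatives covered the gate, the cell filter, the gene minimum, the scaling, the weight per cell and heat shock. 1 listed gene is not reported here by name.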

Additional observations from a re-analysis of the deposited data

Results flagged for a closer look

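Of 1284 pairs of a gene and another cell class, 11 were past the fold in opposite directions, with at least the gene minimum in both; with 1 library per class and group none of these differences was tested. Lymphatic endothelial cells were opposite to blood endothelial cells for Selp, with log2 ratios of 1.65 in blood and -1.40 in lymphatic endothelial cells (from 42 and 19 UMIs in the latter). The same held for Cxcl2 (2.12 against -1.07), Cxcl9 (2.10 against -4.61, from 82 and 4 UMIs) and Pdgfa (2.49 against -1.59). Fibroblasts were opposite for Pdgfa (2.49 against -2.44, from 2727 and 1212 UMIs), Hbegf (1.18 against -1.43) and Ackr1 (1.06 against -1.31). Pericytes were opposite for the BMP target gene Id3, at -1.17 in blood endothelial cells and 1.18 in pericytes (from 603 and 1231 UMIs). T cells were opposite for Rgcc, a complement response and cell cycle gene (1.81 against -1.18, from 3666 and 1533 UMIs), Csf1 (1.49 against -1.29) and Flrt2 (-1.07 against 1.18, from 28 and 60 UMIs).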

How the results depend on the processing

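No paired analysis was possible because each group has 1 library and the labels give no shared replicate numbers, and for the same reason no replicate could be left out. The log2 ratio of the share of gated cells was -0.56 with at least 1500 UMIs, 800 genes and at most 8% mitochondrial UMIs, and lay between -0.98 and -0.68 in the other settings of the gate and of depth, leaving aside the removal of heat shock cells. The counts of genes higher and lower by the fold were 760 and 430 when centred on the median gene, 640 and 2657 with at least 10 UMIs per gene and 223 and 553 with at least 200. Of 13 settings beside the main one, 2 concern heat shock and were chosen after seeing the data. Of 120 followed genes past the fold, 68 stayed past it in every setting and 3 turned: Hist1h1b went to -0.00725 and Krt17 to -0.32 without cells over 20000 UMIs, and Cd3g to -0.19 without cells that hold markers of other lineages. Areg went down to 0.69 with a gate sum of at least 8, Fst to 0.15 without cells of other lineages and Cxcl9 to 0.38 with Ptprc of at most 1. The cause was not tested. Depth limits the rarer genes, since a count of 0 allows up to 0.884 CPM in TLR9agonist_LW.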

Other observations

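Flow-responsive genes were lower or level: Klf2, a transcription factor that laminar flow induces, was at 596 and 355 CPM with a log2 ratio of -0.75, and -1.64 in cells with at most 1% heat shock UMIs, while Klf4 stood at 365 and 365 CPM. Integrin genes were split, with Itgav at 49.9 and 145 CPM past the fold upward, though seen in 22.1% of thinned cells of TLR9agonist_LW against 29.7% of T cells, and Itga9, at 43.4 and 15.035 CPM, and Itga2, at 11.9 and 3.54 CPM, past it downward. The fatty acid carrier genes Fabp4 at 2768 and 2747 CPM and Fabp5 at 764 and 1541 CPM differed from each other in ratio, with -0.01 and 1.01. The list medians were -0.46 for flow-responsive, -0.62 for integrin, -0.18 for capillary, 0.33 for ribosomal, -0.08 for secretion, -0.07 for endothelial to mesenchymal transition, 0.08 for MHC class II, -0.13 for cytokine receptor and -0.62 for mitochondrially encoded genes, beside -0.47 for all tested genes. Relative to the median gene they were, in the same order, 0.01, -0.15, 0.29, 0.81, 0.39, 0.41, 0.55, 0.35 and -0.15. The sign of several therefore depends on the scale.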
